A study of Mus musculus with 24 samples.

Results

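Csprs and the mouse genes of the Sp100 family were followed in 4 tissues of young and aged mice, which were the liver, the lung, the kidney and white adipose tissue (WAT). The genes are Csprs, Sp100, Sp110, Sp140 and 2 relatives known by their clone names, C130026I21Rik and A530032D15Rik. They were found by matching the accession of each array probe to these 6 RefSeq symbols, of 22911 symbols that have a probe, which gave 12 of the 56605 probes on the array. Csprs was picked on its signal in WAT, which was much higher in aged than in young mice. The WAT values of all 12 probes are therefore given below as a description, with no test, and the tests are confined to the other 3 tissues. The mice were males of the C57BL/6J strain at 10 weeks (young) and 90 weeks (aged), with no treatment named in the labels, and each of the 8 groups held 3 mice. Total RNA was labelled with Cy3 and hybridized to 24 Agilent arrays in 1 colour, and the 6 arrays of a tissue share a slide and a scan on which both ages were placed. Tissue and slide cannot be told apart, whereas the ages were always compared within a slide.

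Sp100 is a founding component of promyelocytic leukemia (PML) nuclear bodies, which are small protein assemblies in the nucleus that hold SUMO-modified proteins. Sp100, Sp110 and Sp140 belong to the speckled protein family, whose members share a domain for self-assembly and a SAND domain that can bind DNA, and several members add a PHD finger and a bromodomain that read histone marks. The genes are known to be induced by interferons and are used most in immune cells, where Sp140 and Sp110 restrain inflammatory programs and affect control of intracellular bacteria. Csprs is a mouse gene of the same chromosome region and is linked to a fusion gene called Sp100-rs, whose copies were amplified into a long repeat array in some mouse populations. The number of these near-identical copies differs between mouse chromosomes of different origin. A probe for Csprs or for a clone-named relative may read more than 1 copy, and the files hold no probe sequence with which to separate them.

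Levels are given on the log2 scale as the processed signal of the probe relative to the 75th percentile of its array, so a level of 0 lies at that percentile and a difference of 1 is a 2-fold difference. On each array, 58.6% to 71.1% of probes had a signal well above background, and arrays of the same group correlated at 0.942 to 0.995. Each tissue held its defining markers. The mean level of the hepatocyte markers was 8.5 to 9.11 in the livers, that of the lung epithelium markers 8.66 to 9.26 in the lungs, that of the kidney tubule markers 5.19 to 7.13 in the kidneys and that of the adipocyte markers 6.92 to 7.79 in WAT. Adipocyte markers were at 1.58 to 2.51 in the young lungs and at -3.7 to -0.44 in the aged lungs, and hepatocyte markers reached 3.87 in 1 aged lung. In the kidneys, adipocyte markers were at -6 to -3.2 in young and -3.4 to -1.03 in aged mice, and kidney tubule markers at 6.94 to 7.13 in young and 5.19 to 6.2 in aged mice, and the part of these shifts in the results was not tested. In young WAT, replicate 1 was the lowest of the 3 mice for each of the 12 family probes. The WAT difference without this mouse is given for Csprs alone. The WAT differences of the other probes include it and are larger for it.

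Most of the family was higher in aged mice in every tissue. In the liver, 11 of the 12 probes rose and 1 did not pass the test, against 10.2% of all tested probes that rose and 16% that fell. In the kidney, 11 rose and 1 fell, against 20.5% of all probes that rose and 42.3% that fell. In the lung, 9 rose and 3 did not pass, against 2.7% of all probes that rose and 2.79% that fell. A probe was said to rise or fall where limma, fitted to all probes of the tissue, gave an adjusted p under 0.05. For liver, lung and kidney in turn, the median log2 change of the 12 probes was 2.02, 1.59 and 2.14, while that of all tested probes was -0.2, -0.08 and -0.23. In WAT, which takes no test here, the median was 2.18 for the family and -0.06 for all probes, of which 1.97% were called higher and 0.582% lower. In a tissue sample, more cells of a type and more RNA in each cell cannot be told apart.

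For 11 of the 12 probes, every aged mouse lay above every young mouse in liver, lung and kidney, against 4.18% of the 33349 probes measured in these 3 tissues, and the exception was Sp110 probe A_55_P2066792. Of the 9 probes that were well above background in a young mouse of each of these tissues, 8 had the pattern, against 3.38% of all such probes. The same 11 had it with WAT included, where nothing is read from it because WAT values picked Csprs. Among all 32874 probes measured in every tissue, 904 (2.75%) had it in all 4, and within a tissue it was found in 16.3% of probes for liver, 11.6% for lung, 23% for kidney and 13.7% for WAT. All 12 probes passed the filter on dim signals in each tissue, but 3 in the liver and 2 in the kidney passed only through the aged mice, and those had to differ, so their calls support nothing. Of the other probes, 8 of 9 rose in the liver and 9 of 10 in the kidney. In the lung, the count of 9 fell to 4 without young replicate 1 and to 4 without young replicate 2, and all probes called higher in that tissue fell with it, from 1049 to 39 and 57.

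**Figure D1:**
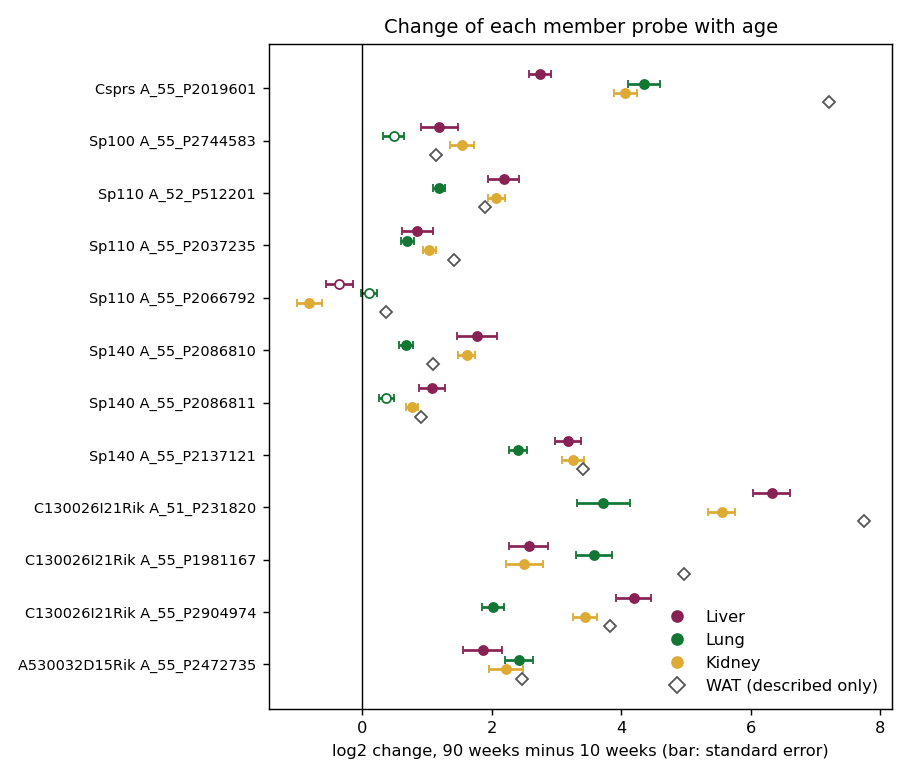
The log2 change from 10 to 90 weeks is plotted for each of the 12 probes, with the standard error as a bar in liver, lung and kidney and an open diamond for WAT, which is described only. Filled circles passed the test at an adjusted p under 0.05 and open circles did not, and all points lie to the right of 0 except the liver and kidney points of Sp110 probe A_55_P2066792.

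Csprs was higher in every aged mouse than in every young mouse of its tissue, with the widest gap in WAT. There, its level was -4.2, -2.63 and -2.93 in the young mice and 3.94, 4.15 and 3.76 in the aged mice. The lowest aged mouse lay 6.39 above the highest young mouse. The means differed by 7.21, a 148-fold difference, and by 6.73 without young replicate 1, and these values are the ones for which Csprs was picked.

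In the lung, Csprs was at -2.38, -2.26 and -2.23 in young and at 1.99, 1.61 and 2.57 in aged mice, a rise of 4.35 (SE 0.24, adjusted p = 0.00419 by limma, higher in 3 of 3 aged mice). In the kidney it was at -1.87, -1.82 and -2.33 in young and at 2.23, 2.09 and 1.83 in aged mice, a rise of 4.06 (SE 0.18, adjusted p = 3.55e-05 by limma). In the liver it was at 0.18, -0.01 and 0.42 in young and at 2.83, 2.97 and 3.06 in aged mice, a rise of 2.75 (SE 0.17, adjusted p = 0.00117 by limma). The young and aged mice did not overlap in any of these tissues, and the folds for lung, kidney and liver were 20.3, 16.6 and 6.74. The rise passed the test under all 15 alternatives in each of these tissues, with log2 changes of 4.08 to 4.57 for lung, 3.7 to 4.45 for kidney and 2.65 to 2.86 for liver.

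Among liver, lung and kidney, the liver was first at both ages and the other organs overlapped. WAT, whose values picked Csprs, moved from last to first among the 4 tissues. Among young mice, the liver held the highest Csprs level and WAT the lowest, with means of 0.2 and -3.26, and kidney and lung lay between them and overlapped each other. Among aged mice, WAT was highest at a mean of 3.95, then the liver at 2.95, and the lung and kidney overlapped at 2.06 and 2.05. The means of the 4 tissues spanned 3.45 in young mice and 1.9 in aged mice. The rise in the liver was smaller than that in the lung by 1.59 (SE 0.42, adjusted p = 0.0143 by limma over all 24 arrays) and smaller than that in the kidney by 1.30 (SE 0.42, adjusted p = 0.0403 by limma). The latter difference passed the test in 14 of 29 alternatives. The rises in lung and kidney differed by 0.29 (SE 0.42, adjusted p = 0.699 by limma).

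**Figure D2:**
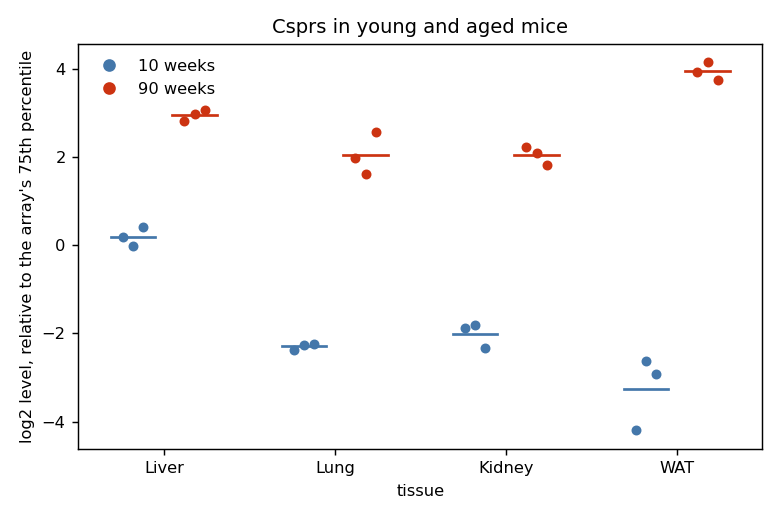
The Csprs level of each mouse is plotted by tissue and age on the log2 scale, relative to the 75th percentile of the array, with a line at the mean of each group. The 3 aged mice lie above the 3 young mice in each tissue, and the gap is widest in WAT, where the means are -3.26 and 3.95.

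Sp100, the component of PML bodies for which the family is named, showed smaller differences. In the kidney its probe was at -1.48, -1.41 and -2.07 in young and at 0, -0.08 and -0.27 in aged mice. In the liver it was at -1.29, -1.09 and -0.66 in young and at -0.13, 0.72 and -0.06 in aged mice. The aged mice lay above the young in both organs, by 1.54 in the kidney (SE 0.19, adjusted p = 0.000925 by limma) and by 1.19 in the liver (SE 0.28, adjusted p = 0.026 by limma). The liver rise did not pass without young replicate 1 (adjusted p = 0.0848) or without young replicate 2 (adjusted p = 0.0882). In the lung, Sp100 was at 0.57, 0.43 and 0.6 in young and at 1.13, 1.22 and 0.7 in aged mice, a difference of 0.48 that did not pass the test (adjusted p = 0.124 by limma). In WAT it was at -0.83, 0.5 and 0.45 in young and at 1.05, 1.05 and 1.44 in aged mice, a difference of 1.14.

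The stretch of the Sp100 promoter below is shown because its capitals are the longest run that the Sp100 and Sp110 windows share with at most 1 mismatch, and because Gm7609, a gene of the same cluster, carries it too. Both are written 5′ to 3′ on the plus strand of GRCm38.p6, from RefSeq, and the capitals mark the 18 letters ACTTTCNTTTTTCTTTTC, which begin 49 and 77 bases before the annotated starts. The Sp100 stretch lies at chr1:85649934-85649961 and that of Gm7609 at chr1:85199529-85199556.
Sp100: gaattACTTTCGTTTTTCTTTTCcccat
Gm7609: gaattACTTTCGTTTTTCTTTTCcccat
Promoter windows of 300 bases (250 before and 50 after a start) were given for 5 of the 6 members, all but Csprs. On either strand, these letters occurred in 4 of 32851 windows (0.0122%), belonging to Sp100, Sp110 and Gm7609. The first pair hold them because the run was read from their windows. The window of Gm7609 was a near copy of that of Sp100 (293 of 298 bases identical), so its match is not a separate one. In Sp110 the letters begin 7 bases after the later of its 2 annotated starts. The interferon-type core AANNGAAA, which lies within them on the opposite strand, was found in 23.9% of all windows and in none of those of Sp140, C130026I21Rik and A530032D15Rik. A pair of GAAA spaced by NN (3.44% of windows) and TTCNNNGAA (8.3%) had no match in the windows of the members. A match describes the letters alone.

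Sp110, an interferon-induced nuclear protein whose region sets resistance to tuberculosis in mice, had 3 probes that did not behave alike. Probe A_52_P512201 was at 2.3, 2.4 and 2.23 in young and 3.55, 3.43 and 3.52 in aged lungs, and rose by 1.18 (SE 0.09, adjusted p = 0.00883 by limma). In the liver it was at 0.03, 0.16 and 0.02 in young and 1.74, 2.55 and 2.45 in aged mice, and rose by 2.18 (SE 0.24, adjusted p = 0.00268 by limma). In the kidney it was at 0.04, 0.12 and 0.22 in young and 2.33, 2.3 and 1.94 in aged mice, and rose by 2.07 (SE 0.13, adjusted p = 0.000102 by limma). No young and aged mice overlapped in these tissues. In WAT the same probe was at 0.47, 2.05 and 1.89 in young and 3.11, 2.97 and 3.99 in aged mice, a difference of 1.89. The lung rise missed the threshold without young replicate 1 (adjusted p = 0.0552).

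Probe A_55_P2037235 of Sp110 moved in the same direction with smaller sizes. Its rise was 0.85 in the liver (adjusted p = 0.0392 by limma), 0.69 in the lung (adjusted p = 0.0216) and 1.03 in the kidney (adjusted p = 0.000466), and its difference in WAT was 1.42. The liver rise missed the threshold when any 1 mouse other than aged replicate 4 was left out, and the lung rise without any 1 of the young mice. The third probe, A_55_P2066792, did not follow. It was at 9.99, 9.72 and 9.93 in young and 9.13, 9.79 and 9.64 in aged livers, and at 6.75, 6.71 and 6.43 in young and 6.65, 6.8 and 6.73 in aged lungs, and the ages overlapped in both. In the kidney it was at 7.63, 8.09 and 8.24 in young and 6.95, 7.21 and 7.33 in aged mice and fell by 0.82 (SE 0.19, adjusted p = 0.00896 by limma). The fall was 0.24 after quantile normalization and did not pass (adjusted p = 0.201).

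That probe carries the same RefSeq accession, NM_175397, as the other probes of Sp110, and which transcript it reads was not tested. In WAT it was at 7.69, 8.23 and 8.08 in young and 8.2, 8.23 and 8.65 in aged mice. Its changes in lung and kidney differed by 0.92 (SE 0.27, adjusted p = 0.0277 by limma), and that difference was 0.27 after quantile normalization (adjusted p = 0.403) and 0.43 after scaling to the spike-in spots (adjusted p = 0.384). Where a gene is represented by its brightest probe, Sp110 takes the values of this one.

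Sp140, a reader of histone marks found mainly in leukocytes, rose by all of its probes in liver and kidney. Probe A_55_P2137121 showed the widest separation. It was at -3.37, -3.08 and -3.15 in young and -0.11, 0.32 and -0.27 in aged livers, at -1.81, -1.9 and -1.88 in young and 0.64, 0.24 and 0.72 in aged lungs, and at -4.11, -4.07 and -4.58 in young and -0.87, -0.92 and -1.2 in aged kidneys. It rose by 3.18 in the liver (SE 0.2, adjusted p = 0.00117 by limma), by 2.40 in the lung (SE 0.14, adjusted p = 0.00419) and by 3.26 in the kidney (SE 0.17, adjusted p = 5.72e-05). In WAT it was at -3.75, -2 and -2.02 in young and 0.72, 0.45 and 1.28 in aged mice, a difference of 3.41.

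The other probes of Sp140 gave smaller changes. Probe A_55_P2086810 rose by 1.77 in the liver (adjusted p = 0.0103 by limma), 1.61 in the kidney (adjusted p = 0.000218) and 0.67 in the lung (adjusted p = 0.0277). The lung rise of this probe missed the threshold without any 1 of the young mice or without aged replicate 3, with adjusted p between 0.0516 and 0.125. Probe A_55_P2086811 rose by 1.08 in the liver (adjusted p = 0.0124 by limma) and 0.77 in the kidney (adjusted p = 0.000668), and its difference of 0.37 in the lung did not pass (adjusted p = 0.103). In WAT these probes differed by 1.09 and 0.9 between the ages, and young replicate 1 was the lowest young mouse for both, at -2.42 against -0.67 and -0.85, and at 0.93 against 2.31 and 2.13. Across all 12 probes and the 3 pairs of tissues, 6 of 36 differences in the age change passed the test, and none of them was a probe of Sp140 or Sp100. Of all probes, 15.7% passed for liver against lung, 10.9% for liver against kidney and 20.2% for lung against kidney.

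C130026I21Rik, a clone-named relative of Sp140 whose function is little known, had the widest change of the family in the liver. Its probe A_51_P231820 stayed under the well-above-background mark in the young livers and young kidneys, at -5.76 to -6.83 and -7.2 to -7.88. In the aged mice it was at -0.16, -0.11 and -0.06 in the liver and -1.94, -1.78 and -2.29 in the kidney. Against the lowest signal that counted as well above background on each array, aged livers were at least 21.7-fold higher (adjusted p = 0.000586 by limma) and aged kidneys at least 10.8-fold higher (adjusted p = 2.45e-05). These p-values come from a probe that passed the filter through the aged mice alone and are no support. In the lung, where young mice were measured at -2.99, -4.04 and -4.15 and aged mice at -0.28, -0.4 and 0.65, it rose by 3.72 (SE 0.41, adjusted p = 0.0131 by limma). In WAT it was at -7.63 (not well above background), -5.15 and -4.74 in young and at 1.51, 1.7 and 2.54 in aged mice.

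Probes A_55_P1981167 and A_55_P2904974 of the same gene ran alike. Their young livers were again not well above background, with aged levels at least 3.6-fold and at least 14.2-fold higher (adjusted p = 0.00317 and 0.00117 by limma, with the same limit). In the lung they rose by 3.58 (adjusted p = 0.00883) and 2.01 (adjusted p = 0.00918). In the kidney, A_55_P2904974 was measured in all 6 mice and rose by 3.44 (adjusted p = 5.49e-05), and A_55_P1981167, dim in the young mice, was at least 2.22-fold higher (adjusted p = 0.000749, with the same limit). In WAT the differences were 4.96 and 3.83, and for the former only 1 of the 3 young mice was well above background. Without young replicate 2, the lung rises of A_51_P231820 and A_55_P2904974 missed the threshold, with adjusted p = 0.0693 and 0.0517. Those rises also missed it without young replicate 3 for the former (adjusted p = 0.0564) and without young replicate 1 for the latter (adjusted p = 0.0589).

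The size of the change in this gene depended on the treatment of the background where the young mice were dim. For A_51_P231820 the log2 change in the liver was 6.32 from the processed signal and 3.24 after normexp correction, and that in the kidney 5.55 and 2.31, while that in the lung was 3.72 and 3.22. The difference of the change between liver and lung was 2.60 for this probe (adjusted p = 0.026 by limma) and 2.17 for A_55_P2904974 (adjusted p = 0.00125), and 0.01 (adjusted p = 0.988) and 0.68 (adjusted p = 0.155) after normexp. Since both probes were dim in the young livers, their liver changes have only a bound and these differences no exact size. The change of A_55_P2904974 was larger in the kidney than in the lung by 1.42 (adjusted p = 0.0193 by limma) and by 0.43 after normexp (adjusted p = 0.389).

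A530032D15Rik, another clone-named relative of Sp140, was higher in every aged mouse than in every young one. Its probe was at -3.4, -3.26 and -3.76 in young and -0.79, -1.45 and -0.9 in aged lungs, and at -3.17, -3.13 and -3.05 in young and -1.47, -0.58 and -1.73 in aged livers. In the kidney it was at -4.51, -3.7 and -3.55 in young and -1.61, -1.56 and -1.94 in aged mice. The rises were 2.42 in the lung (SE 0.22, adjusted p = 0.00933 by limma), 1.86 in the liver (SE 0.3, adjusted p = 0.00834) and 2.22 in the kidney (SE 0.26, adjusted p = 0.000786). In WAT it was at -3.39, -2.96 and -2.71 in young and at -0.98, -0.9 and 0.22 in aged mice, a difference of 2.47. Without young lung replicate 1 or 2, its lung rise missed the threshold (adjusted p = 0.0589 and 0.0517).

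**Figure D3:**
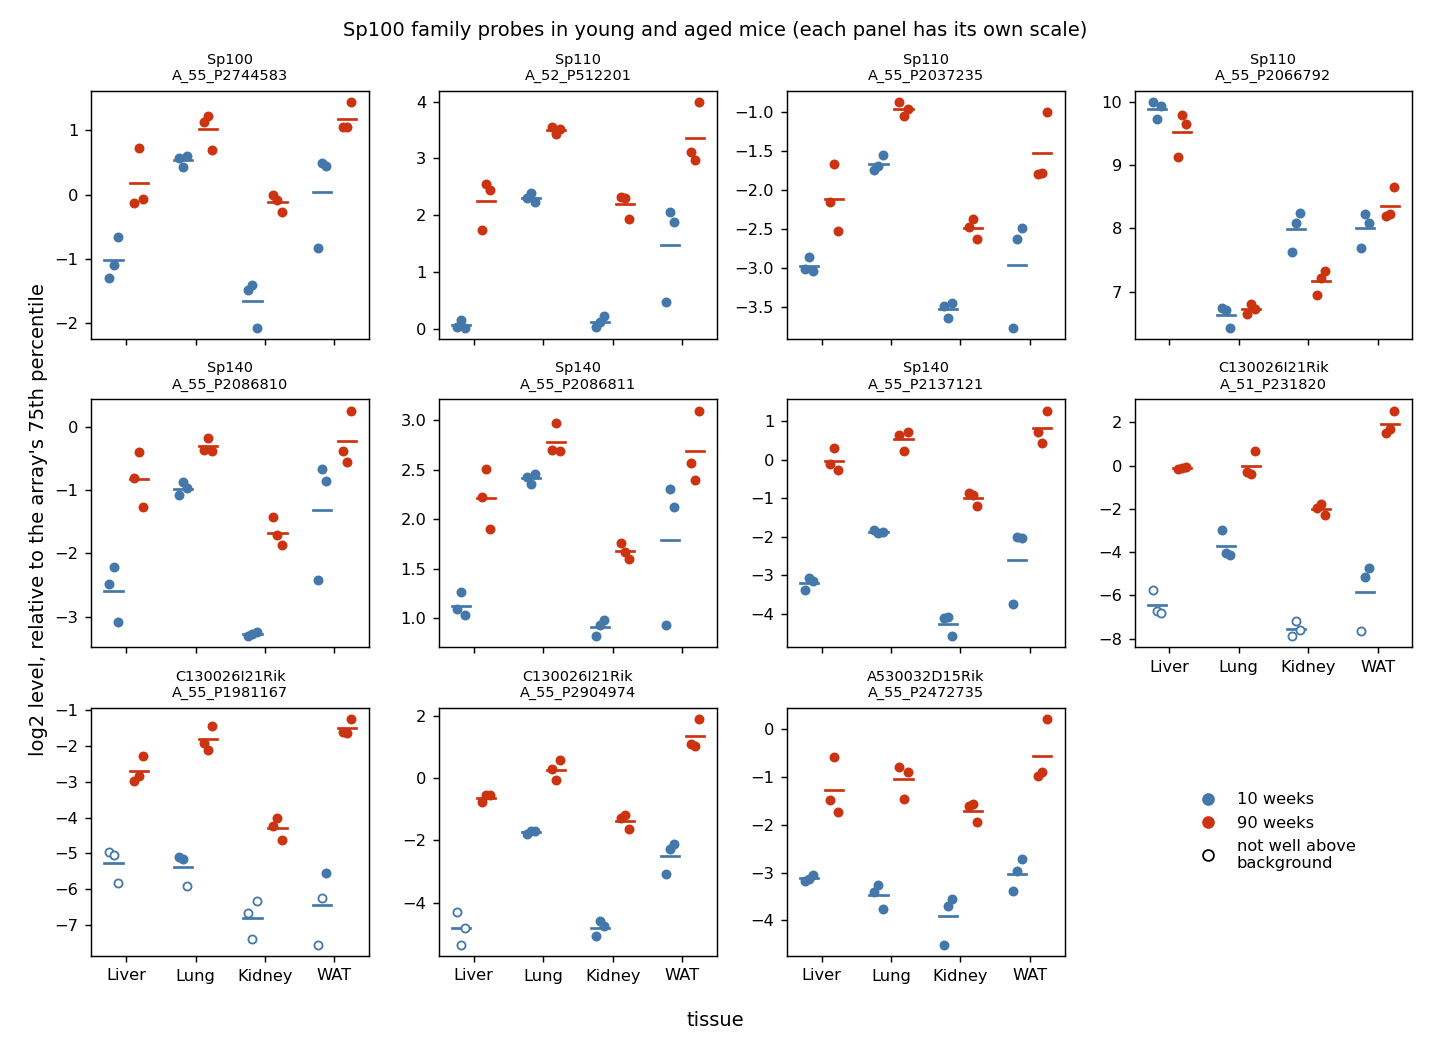
The level of each mouse is plotted for the other 11 probes, by tissue and age, with a line at the group mean, and each panel has its own scale. Open circles were not well above background, which were young mice of C130026I21Rik, and the ages overlap only for Sp110 probe A_55_P2066792.

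The promoter windows of Sp140, C130026I21Rik and A530032D15Rik in RefSeq (GRCm38.p6) were near copies of one another. Without gaps, A530032D15Rik and Sp140 were identical at 270 of 271 overlapping bases (99.6%), while C130026I21Rik was identical to Sp140 at 254 of 262 (96.9%) and to A530032D15Rik at 259 of 291 (89%), with an unbroken run of 255 bases shared with the latter. A stretch of 28 bases is shown for each to let the difference be seen, and the capital marks the base at which Sp140 departs from the others. It lies on the plus strand at chr1:85600555-85600582 for Sp140 and on the minus strand at chr1:85109945-85109972 for A530032D15Rik and at chr1:85270649-85270676 for C130026I21Rik.
Sp140: caccttagcaagcGgctctgcctggatt
A530032D15Rik: caccttagcaagcAgctctgcctggatt
C130026I21Rik: caccttagcaagcAgctctgcctggatt
The windows of Sp100 and Gm7609 were likewise identical at 293 of 298 bases (98.3%) without gaps. These runs show how alike the copies in the cluster are, and levels of such genes are uncertain where a probe could read more than 1 of them.

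The patterns most like that of Csprs were sought among 43357 probes over the 24 arrays, after the mean of each tissue was subtracted. Of these, 274 correlated with Csprs above 0.9, and the median correlation was -0.211. The WAT values that picked Csprs enter here, and without the 6 WAT arrays 315 probes were above 0.9 and the median was -0.3. The closest was a probe for a predicted transcript, XM_003084455, at r = 0.999, whose log2 changes were 2.82 (liver), 4.4 (lung), 3.94 (kidney) and 7.03 (WAT). The values of Csprs were 2.75, 4.35, 4.06 and 7.21 in that order. Next were ENSMUST00000160058 at 0.984 and Gm7609 at 0.972. A probe for the noncoding region chr1:85036677-85038530 (mm9, the build of the array) was at 0.969, and a pair of probes for chr1:85304494-85305390 were both at 0.959. The remaining ones of the first 10 were ENSMUST00000103418 (0.963), Tmem181a (0.961), Gdf3, a growth factor of the TGF-beta family (0.959), and ENSMUST00000103423 (0.959). The values share the contrast between the ages, and within the groups the correlation with Csprs was 0.967 for XM_003084455, 0.659 for ENSMUST00000160058 and 0.093 for Gm7609.

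Among the members, the correlation with Csprs on this scale was 0.97, 0.947 and 0.907 for the probes of C130026I21Rik, 0.922 for A530032D15Rik and 0.937 for Sp140 probe A_55_P2137121. It was 0.884 and 0.874 for a pair of Sp110 probes, 0.803 for Sp100, 0.77 and 0.76 for the other probes of Sp140 and -0.094 for Sp110 probe A_55_P2066792. Without the WAT arrays, the values were 0.898 to 0.955 for C130026I21Rik, 0.956 for both A530032D15Rik and Sp140 probe A_55_P2137121, 0.812 for Sp100 and -0.543 for Sp110 probe A_55_P2066792. Of the closest probes, XM_003084455 (0.999), ENSMUST00000160058 (0.981) and Gm7609 (0.977) had the highest values among the probes outside the family there too. Within the groups and with WAT included, the probes of C130026I21Rik were at 0.446, 0.66 and 0.537, in the order first given. A530032D15Rik was at 0.16, Sp140 probe A_55_P2137121 at 0.732 and the other member probes at 0.178 to 0.559. Gm7609, the only 1 of the 9 genes that lie between the members with a probe on the array, is known by its gene model alone. It rose by 1.88 in the liver (adjusted p = 0.00658 by limma), 3.33 in the lung (adjusted p = 0.0111) and 2.63 in the kidney (adjusted p = 0.00035), and in WAT, where no young mouse had it well above background, aged mice were at least 35.8-fold higher. The lung rise of Gm7609 missed the threshold without young replicate 1 or 2.

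The genes on either side of the cluster changed in both directions. Of those on the left side, none of 5 tested rose in the liver and 2 fell, none of 7 rose in the lung and 1 fell, and 2 of 7 rose in the kidney and 3 fell. Of those on the right side, 2 of 6 rose in the liver and 1 fell, none of 9 rose or fell in the lung, and 2 of 8 rose in the kidney and 5 fell. Of all tested probes, 10.2% (liver), 2.7% (lung) and 20.5% (kidney) rose, and 16%, 2.79% and 42.3% fell. With so few genes, these counts give nothing particular to the region. The median log2 changes of the neighbours on each side lay between -0.49 and -0.15 in these tissues. No young kidney held the chemokine gene Ccl20 well above background, and aged kidneys were at least 26.5-fold higher (adjusted p = 6.88e-05 by limma). Ccl20, counted among the 2 rises on the left side, passed the filter through the aged mice alone, so its call and p-value are no support. Pid1 rose by 2.72 in the kidney (adjusted p = 0.000121 by limma). The gene 2810459M11Rik fell by 1.63 and Fbxo36 by 1.59 in the kidney, and in the liver A630001G21Rik rose by 1.59 and Armc9 fell by 1.56. A630001G21Rik also rose in the kidney by 1.41 (adjusted p = 0.000465 by limma). Its differences were 1 in the lung (adjusted p = 0.0662 by limma) and 2 in WAT (adjusted p = 0.045 by limma). In WAT, 2 of 8 genes on the right side and 0 of 6 on the left were called higher, against 1.97% of all probes, with 0 lower. With 1 mouse left out, 0 to 1 on the right side were. With scaling to the spike-in spots, which moved the median of all probes in the kidney from -0.23 to 0.16, 1 gene on each side was lower there.

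Genes that interferons induce rose with the family in liver and kidney. Of all tested probes, 10.2% rose in the liver, 20.5% in the kidney and 2.7% in the lung, while 16%, 42.3% and 2.79% fell. Of the 54 interferon-induced genes tested, 31 rose in the liver with none lower and 10 rose in the lung with none lower. The kidney held 48 that rose and 2 that were lower (Samd9l and Trim25). In the kidney, Oas3 passed the filter through the aged mice alone, so its call there is no support. Without adjustment, 1 was lower in the liver and none in the lung, and the methods' t-test called 12 higher (liver), 1 (lung) and 43 (kidney), with none lower in liver and lung. The lung count was 3 with no filter on dim probes and 9 without aged replicate 1 or 2, but 0 without young replicate 1 or 2, 2 without young replicate 3 and 3 without aged replicate 3. The liver count was 19 to 26 with 1 mouse left out, the lowest without young replicate 1, and none was lower in the kidney after quantile normalization or scaling to the spike-in spots. Their median log2 change was 0.92 in the liver, 1.43 in the kidney and 0.26 in the lung. The largest rises were those of Oas1a (2.49) and Oas3 (2.22), sensors of double-stranded RNA, in the liver, of Oas2 (2.5) and the antiviral enzyme gene Rsad2 (1.98) in the lung, and of Ifi27l2a (3.36) and Ifi205 (3.04) in the kidney. Irf7, a transcription factor of the interferon response, rose in these 3 tissues, by 1.9, 1.3 and 2.16 in liver, lung and kidney.

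In WAT, where the difference of Csprs was widest, none of the 54 genes passed limma's adjusted test and 11 were higher at an unadjusted p under 0.05, and none passed with the methods' t-test. Their median difference there was 0.59. In WAT that t-test called 1 of 38295 probes higher and 0 lower, so nothing is read from its counts there. The list of interferon ligands, receptors and kinases also held Socs1 and Socs3, feedback inhibitors of these kinases. In the liver 3 of 14 rose, against 10.2% of all probes, among them the receptor gene Il10rb (1.6) and the ligand gene Ifng. No young liver held Ifng well above background, with at least 1.66-fold more signal in the aged ones (adjusted p = 0.0394 by limma). Only the aged livers brought Ifng past the filter on dim signals, so its call and p-value there are no support. In the kidney 10 of 14 rose, against 20.5% of all probes. The largest changes there were those of Socs3 (3.81) and of Ifng (2.29), which 1 of 3 young kidneys held well above background. None of 13 passed limma's test in the lung or in WAT, where 2 were higher at an unadjusted p under 0.05 in each and none passed with the methods' t-test.

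Few genes of PML nuclear bodies changed in liver and lung, and those of the kidney changed in both directions. Of 35 tested, 4 rose and 1 fell in the liver, none rose and 1 fell in the lung, and 8 rose and 10 fell in the kidney. Of all tested probes, 10.2%, 2.7% and 20.5% rose in liver, lung and kidney, and 16%, 2.79% and 42.3% fell. The share of the list that rose was 11.4%, 0% and 22.9% in that order, so the rises give nothing particular to it. The unadjusted count of higher genes in the lung was 1, none was higher there by the methods' t-test, and the liver count of higher genes was 0 without young replicate 1, young replicate 2 or aged replicate 2, and 1 with scaling to the spike-in spots. Pml, the organizer of the bodies, differed by -0.1 in the liver, 0.47 in the lung and -0.02 in the kidney (adjusted p = 0.652, 0.0694 and 0.866 by limma), and Daxx, a histone chaperone found in them, rose by 0.22 in the kidney (adjusted p = 0.0308). In the kidney the exonuclease gene Isg20 rose by 1.83 and the transcription factor gene Ets1 by 1.15, while the helicase gene Blm fell by 1.98 and the histone chaperone gene Asf1a by 0.64. The kidney counts were 13 higher and 1 lower with scaling to the spike-in spots, and 14 and 6 after quantile normalization. In the liver Morc3 rose by 0.99 and Senp1 by 0.66, and Hipk2 fell by 0.65. Of the other genes with a SAND domain (Aire, Deaf1, Gmeb1 and Gmeb2), only Deaf1 passed, with a fall of 0.42 in the kidney (adjusted p = 0.00267 by limma), and with scaling to the spike-in spots none of the 4 was lower there and 1 was higher.

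**Figure D4:**
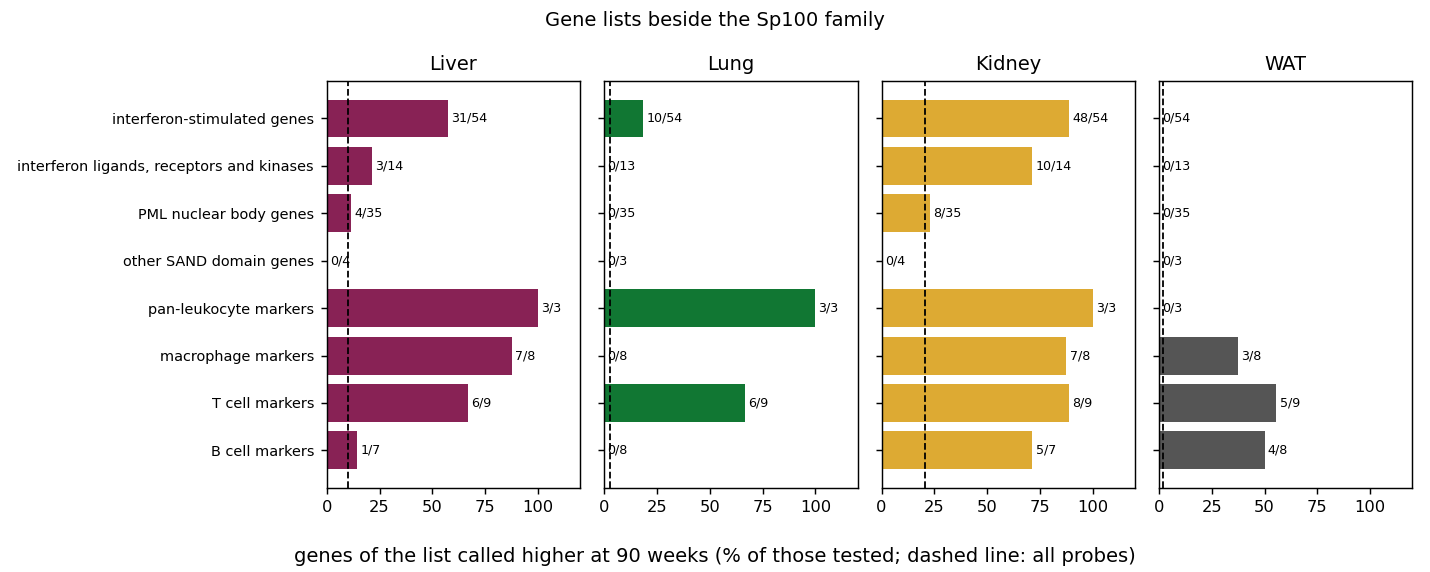
Bars give the share of each gene list that was called higher at 90 weeks in each tissue by limma at an adjusted p under 0.05, with the counts beside them, and dashed lines give the share over all probes (10.2%, 2.7%, 20.5% and 1.97%). Interferon-stimulated genes exceed the line in liver, lung and kidney with 31, 10 and 48 of 54 genes, and PML nuclear body genes stay near it.

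Markers of leukocytes, the cells in which the family is most used, were higher in aged mice too. The pan-leukocyte markers (Ptprc, Coro1a and Laptm5) all rose in liver, lung and kidney, and Ptprc rose by 2.41, 1.34 and 2.99. Their mean level was 0.25 to 0.32 in young and 2.1 to 3.36 in aged livers, 2.68 to 2.77 and 3.9 to 4.08 in the lungs, and -0.71 to -0.62 and 2.11 to 2.66 in the kidneys. In WAT it was 0.7 to 2.35 in young and 3.36 to 3.88 in aged mice, and none of these markers passed limma's adjusted test there, although 3 did without adjustment and none with the methods' t-test. Of 9 T cell markers, 6 rose in both liver and lung, 8 in the kidney (where Cd4 fell, a call lost under both other scalings) and 5 in WAT. The methods' t-test called 3 T cell markers in the liver, 8 in the kidney and none in lung or WAT. In WAT it called only 1 of 38295 probes, so nothing is read from its counts there. In the lung, no T cell marker passed without any 1 of the young mice and 2 did without aged replicate 3, and of the pan-leukocyte markers 0, 1 and 1 passed without young replicate 1, 2 and 3. In WAT, leaving out any 1 mouse left 2 to 4 T cell, 0 to 1 macrophage and 0 to 3 B cell markers called. Of 8 macrophage markers, 7 rose in both liver and kidney, 3 in WAT and none in the lung (none at an unadjusted p under 0.05 or by the methods' t-test either). Of the B cell markers, 1 of 7 rose in the liver (none without any 1 mouse other than aged replicate 2), none of 8 in the lung (1 without adjustment, none by the methods' t-test), 5 of 7 in the kidney, with 1 lower (none with scaling to the spike-in spots), and 4 of 8 in WAT. Of all tested probes, 10.2% (liver), 2.7% (lung), 20.5% (kidney) and 1.97% (WAT) were called higher. The share of B cell markers that rose in the liver, 14.3%, is near that of all probes. Every marker of the leukocyte lists was well above background on some array of each tissue, and the part of cell composition in the changes of the family was not tested.

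A pair of genes was looked up after the values had been seen, because their RNA is known to differ between colonies of C57BL/6 mice. For Wdfy1, 2 of 3 probes were above in every aged mouse of every tissue, with log2 changes of 1.96 to 2.59 for probe A_51_P390314 and of 1.8 to 2.47 for A_52_P328825. For Entpd4, 2 of 3 probes were below in every aged mouse of every tissue, with changes of -2.61 to -0.81 for A_51_P302222 and of -2.43 to -0.77 for A_55_P1992505. Among all 32874 probes measured in every tissue, 904 (2.75%) were above in this way and 999 were below. The labels give the same strain for all mice and do not say whether young and aged mice came from the same colony, so colony and age cannot be told apart. The part of the colony in the values of Csprs and its relatives was not tested.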

How the data were processed

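Intensities were deposited by the authors as scanner output: per the file headers, Agilent Feature Extraction 11.0.1.1 wrote a background-subtracted processed signal for each of 62976 spots, in arbitrary units and not scaled between arrays. The files carry a mouse design on mm9, whereas the methods name a human kit. The table used for names was RefSeq on GRCm38.p6, which 58.3% of the probes matched, and its coordinates are printed only with its promoter sequences. Outlier spots (1841 in total) were dropped. Processed signals were put on the log2 scale with no pseudocount, spots of a probe were averaged, and the 75th percentile over probes other than controls was subtracted. A probe was tested in a tissue where 3 or more of its 6 arrays called it well above background.

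The comparison of aged with young mice used limma 3.58.1 in R 4.3.3, tissue by tissue and probe by probe, with Benjamini-Hochberg adjustment over all probes of the tissue and a threshold of 0.05. Differences of the age change between liver, lung and kidney were fitted over all 24 arrays and adjusted over the 32874 probes and 3 pairs together. Whether a mouse gave more than 1 tissue is not given in the sources used here, and that fit treats the arrays as independent. The lower bound on a fold set the mean of the aged group against the mean, over young arrays, of the lowest signal called well above background or the probe's own, whichever was higher. Lists of genes were represented by the brightest probe of each gene.

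The members and the lists were chosen with earlier results of these data known. Named were all member probes, the 2 genes of each list that changed most in each direction among those called in a tissue, the genes the lists were built around (Pml, Daxx, Irf7 and Ptprc, with 1 more that is not reported here), at most 6 neighbours, and the 10 probes most like Csprs. On simulated data, the fit of the single probes recovered 66.2% (liver), 81.2% (lung), 81.2% (kidney) and 38.8% (WAT) of log2 changes of 2, and in WAT 3.8% of changes of 1. Far fewer probes were changed in the simulation than were called in the data, so these shares do not give the recovery in the data. Alternatives were normexp background correction (offset 16), quantile normalization, scaling to 230 spike-in spots, no filter on dim probes, the brightest probe or the mean of the probes of a gene, a joint fit of the 24 arrays, a block on replicate number, the methods' t-test with Benjamini-Hochberg adjustment, and each mouse left out in turn. Signal over background and 3 mice per group limit the precision, and the labels name no cages or litters. Within a tissue, replicate numbers did not pair young with aged mice: the deviations of same-numbered mice correlated at -0.17 to 0.16. These values do not compare same-numbered samples of different tissues.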

Additional observations from a re-analysis of the deposited data

Results flagged for a closer look

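The age change of 3 genes of the family differed between tissues by a direct test of the difference (limma over all 24 arrays). Of the 12 probes, 3 passed for liver against lung, 1 for liver against kidney and 2 for lung against kidney, beside 15.7%, 10.9% and 20.2% of all probes, so the counts give nothing particular to the family. The change of Csprs in the liver minus that in the lung was -1.59 (adjusted p = 0.0143), and it did not pass after scaling to the spike-in spots (-1.38, adjusted p = 0.0969). The change of Csprs in the liver minus that in the kidney was -1.30 (adjusted p = 0.0403). This difference passed in 14 of 29 alternatives, with values between -1.58 and -1.04, and did not pass when any 1 of these was left out: young lung replicate 1, 2 or 3, young liver replicate 1 or 3, aged liver replicate 1 or 2, young kidney replicate 1 or 3, or aged kidney replicate 1 or 2.

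For C130026I21Rik probe A_51_P231820, liver minus lung was 2.60 (adjusted p = 0.026), and for its probe A_55_P2904974 liver minus lung was 2.17 (adjusted p = 0.00125) and lung minus kidney -1.42 (adjusted p = 0.0193). After normexp correction these values were 0.01, 0.68 and -0.43, and none passed (adjusted p = 0.988, 0.155 and 0.389). Both probes were not well above background in any young liver, so the first pair of differences have no exact size. For Sp110 probe A_55_P2066792, lung minus kidney was 0.92 (adjusted p = 0.0277), and 0.43 with scaling to the spike-in spots (adjusted p = 0.384).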

How the results depend on the processing

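Csprs rose under all 15 alternatives in liver, lung and kidney, and its difference in WAT was 6.73 to 7.52 with 1 mouse left out. Of 168 values of single probes per tissue under the alternatives, 150 kept direction and call in the liver, 131 in the lung and 166 in the kidney. With the brightest probe of each gene, 5 of 6 genes rose in the liver, 3 in the lung and 5 in the kidney, and with the mean of the probes 6, 5 and 6 did. The methods' t-test called 7 probes in the liver and 5 in the lung. With 1 mouse left out, the probes that rose were 9 to 11 in the liver, 4 to 9 in the lung and 11 to 11 in the kidney. Quantile normalization and the mean of the probes left 0 lower in the kidney.

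Same-numbered young and aged mice of a tissue were not paired by their deviations. With the replicate number as a block, 2 probes rose in the lung and 0 differed between liver and kidney.

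The probes that differed numbered 2 to 6 for liver against lung, 0 to 1 for liver against kidney and 0 to 5 for lung against kidney with 1 mouse left out, the highest of the first and last being without young WAT replicate 1. For liver against kidney, 0 differed under quantile normalization, scaling to the spike-in spots and no filter. For lung against kidney, 1 differed under quantile normalization.

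Sp110 probe A_55_P2066792 changed sign in the liver under quantile normalization (0.13), in the lung with scaling to the spike-in spots (-0.0012) and with 1 mouse left out (-0.0036 to 0.16, the former without young replicate 3). With the mean of the Sp110 probes the change was 0.89 (liver) and 0.76 (kidney), since the other probes enter it. The cause of the other changes was not tested. Scaling to the spike-in spots moved all probes called in the kidney from 8198 higher and 16927 lower to 11823 and 5552, while the family stayed at 11 and 1. In the liver it moved them from 3597 and 5664 to 3163 and 1204. Leaving out a mouse for the gene lists, and leaving out WAT, were chosen after seeing the data.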
